A study of Mus musculus with 11 samples.

Results

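The regions described here are the broad domains of H3K27 acetylation (H3K27ac) that differed between *Tbx5*G125R/+ and control atrial cardiomyocytes: those at least 8000 bp wide in the deposited table of differential regions. The limit was applied to width alone, whatever the direction, and 282 of 1652 listed regions met it. The mark was profiled by CUT&RUN, in which an antibody guides a nuclease to cut out the marked chromatin, in nuclei of pooled left and right atria, 6 libraries from *Tbx5*G125R/+ mice and 5 from control mice, all 8 to 12 weeks old. *Tbx5*G125R/+ mice are heterozygous for a point mutation placed in the gene of the T-box transcription factor *Tbx5*, the mouse equivalent of a variant found in a family with atrial fibrillation. The nuclei had been sorted for PCM1 (pericentriolar material 1), which marks the nuclear envelope of these cells. The sex of the mice and the strain of the controls were not in the labels.

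H3K27ac marks promoters and enhancers that are in use. At most of these it covers a short stretch, whereas long acetylated stretches, called super-enhancers or broad domains, form where many enhancers lie close together and are known for lying at genes that define a cell type. In atrial cardiomyocytes, T-box, GATA and MEF2 factors bind at such stretches, near genes for the sarcomere, ion channels and the transcription factors themselves. For each region the deposited values gave the level of 1 bin of 500 bp, the bin with the strongest difference, called the top bin here. A level is the normalised read count of that bin, reads divided by a size factor for the library. The levels say nothing of the remainder of a region, and a direction is that of its top bin.

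Start sites were looked at first, because the top bin lay on one in 6 of the 152 broad regions that were higher in *Tbx5*G125R/+ and in 0 of the 116 that were lower, among the regions for whose chromosome start sites were at hand. The promoters that follow, from RefSeq on GRCm38.p6 (the same assembly as mm10), run from 250 bases before to 50 bases after a start site. *Pdgfra*, the receptor of platelet-derived growth factor that marks fibroblasts, and *Trib2*, a pseudokinase, had the start site in the top bin of a region that was higher. *Actn2*, which encodes the alpha-actinin of the Z-disc, and *Ryr2*, the channel that releases stored calcium for contraction, had it in a region that was lower, with the top bin elsewhere. Capitals mark matches, on either strand, to the T-box motif AGGTGT, to GGGCGG, the GC box of SP and KLF factors, to the GATA factor motif AGATAA and to TATAAA, the core of the box that binds TBP. None of these motifs contains another.
Pdgfra (chr5:75152001-75152300, + strand): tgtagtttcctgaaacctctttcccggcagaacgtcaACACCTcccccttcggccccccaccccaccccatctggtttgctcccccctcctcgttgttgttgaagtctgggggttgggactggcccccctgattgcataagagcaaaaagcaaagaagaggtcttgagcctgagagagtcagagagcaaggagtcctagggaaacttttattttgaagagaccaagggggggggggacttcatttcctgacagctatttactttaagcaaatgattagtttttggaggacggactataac
Trib2 (chr12:15816736-15817035, - strand): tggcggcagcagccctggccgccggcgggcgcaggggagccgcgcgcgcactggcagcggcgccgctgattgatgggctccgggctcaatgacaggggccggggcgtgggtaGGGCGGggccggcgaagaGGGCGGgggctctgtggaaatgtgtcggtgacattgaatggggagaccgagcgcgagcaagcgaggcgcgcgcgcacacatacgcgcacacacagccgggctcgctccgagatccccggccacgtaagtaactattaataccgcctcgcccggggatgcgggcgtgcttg
Actn2 (chr13:12340683-12340982, - strand): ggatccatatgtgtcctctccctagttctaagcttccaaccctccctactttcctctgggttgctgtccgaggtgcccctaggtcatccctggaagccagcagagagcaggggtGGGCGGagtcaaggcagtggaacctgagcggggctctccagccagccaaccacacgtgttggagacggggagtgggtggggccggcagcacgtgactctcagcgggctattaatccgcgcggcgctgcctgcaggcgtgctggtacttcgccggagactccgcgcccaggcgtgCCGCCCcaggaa
Ryr2 (chr13:12106896-12107195, - strand): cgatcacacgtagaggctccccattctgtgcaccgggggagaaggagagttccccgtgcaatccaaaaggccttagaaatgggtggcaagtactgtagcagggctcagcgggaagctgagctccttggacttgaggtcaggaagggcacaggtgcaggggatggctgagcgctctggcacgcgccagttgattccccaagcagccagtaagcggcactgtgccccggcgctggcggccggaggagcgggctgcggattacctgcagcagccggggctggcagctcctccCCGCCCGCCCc

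The *Pdgfra* promoter held 1 T-box match and no other, and all 300 of its bases lay in the top bin. The *Trib2* promoter held 2 GC boxes, and 285 of its bases lay in the top bin. The *Actn2* and *Ryr2* promoters held 2 GC boxes each, and their start sites lay 3982 bp and 11695 bp from the middle of the top bin. Over all 21263 promoters of protein-coding genes in the same reference table, 12.7% held the T-box letters and 46.2% the GC box. Among the 87 start sites in broad regions that were higher, 10.3% had the T-box letters and 72.4% the GC box, and among the 29 in regions that were lower, 10.3% and 55.2%. The GATA letters were in 2.30% of promoters in regions that were higher, 3.45% in regions that were lower and 9.65% of all promoters, and TATAAA was in 8.05%, 3.45% and 12.6%. The median G+C content was 63.0% in regions that were higher, 60.7% in regions that were lower and 56.3% over all promoters. These differences between sets of promoters were not tested, and a match is a run of letters, not a binding site.

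A second set of sequences is that of microRNAs encoded inside broad regions, since a region over a hairpin could bear on a small RNA that a gene name would hide. Hairpins were found in 5 broad regions, 9 in all with 15 mature forms, and no pair of these shared a seed. A region inside *Dnm3* held the miR-199a and miR-214 hairpins, which in the mouse are made from a transcript opposite to *Dnm3*, and a region without a protein-coding gene held miR-125b-1. Both were higher in *Tbx5*G125R/+. A region over *Aopep* and *Fancc* held the cluster of miR-23b, miR-27b and miR-24 and was lower. The seed, bases 2 to 8, is in capitals.
miR-199a-5p: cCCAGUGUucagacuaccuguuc
miR-199a-3p: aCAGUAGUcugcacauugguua
miR-214-3p: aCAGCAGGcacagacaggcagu
miR-125b-5p: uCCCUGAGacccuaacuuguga
miR-27b-3p: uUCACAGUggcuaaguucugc
miR-24-3p: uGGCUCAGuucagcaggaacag

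The *Dnm3* region (chromosome 1, 162215001 to 162227000) had a lowest, median and highest level of 31.8, 41.2 and 53.0 normalised reads in *Tbx5*G125R/+ libraries, against 12.8, 0.681, 5.62, 9.69 and 0 in controls. The lowest *Tbx5*G125R/+ library was above the highest control, and the log2 fold change was 3.26 ± 0.65 (SE, limma adjusted p = 0.0080). The miR-125b-1 region (chromosome 9, 41575251 to 41589750) had a lowest, median and highest level of 11.3, 34.0 and 63.4 normalised reads in *Tbx5*G125R/+ libraries, against 8.52, 5.45, 4.50, 2.77 and 0 in controls. Its libraries did not overlap between genotypes either, and its log2 fold change was 2.84 ± 0.64 (adjusted p = 0.025). The region over *Aopep* and *Fancc* (chromosome 13, 63237751 to 63308000), 70250 bp wide, had a lowest, median and highest level of 54.7, 61.7 and 75.4 normalised reads in *Tbx5*G125R/+ libraries, against 107, 124, 183, 107 and 99.5 in controls. All *Tbx5*G125R/+ libraries were below all controls there, but the change (-0.94 ± 0.27) did not pass the test (adjusted p = 0.16). The region of *Vmp1* that holds miR-21a was at 43.6, 54.6 and 126 in *Tbx5*G125R/+ libraries (lowest, median, highest), against 6.39, 25.9, 16.9, 24.9 and 23.4 in controls, and it too fell short of the test (adjusted p = 0.066). Control values are given by replicate, 1 to 5, here and for other regions. All these levels are those of the top bin, which need not lie at a hairpin. The *Dnm3* top bin ran from 162215501 to 162216000, and miR-199a-5p began at 162217844. The top bin of the miR-125b-1 region ran from 41588751 to 41589250, and miR-125b-5p from 41581940 to 41581961. At *Vmp1* the top bin began at 86584501, and miR-21a-5p ended at 86584141. The RNA levels of these microRNAs were not measured in these libraries.

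The top bins of all listed regions held 43183 to 161738 reads per *Tbx5*G125R/+ library and 27118 to 72442 reads per control library, so control levels of a few reads are imprecise. The shallowest control, replicate 5, had 0 reads in the top bin of 84 of the 156 broad regions that were higher, against 20 to 47 in the other controls. The broad regions took 23.2% to 25.4% of the top-bin reads of a *Tbx5*G125R/+ library and 44.5% to 47.5% of those of a control library, without overlap. Over the broad regions, log2 levels correlated between *Tbx5*G125R/+ libraries with r = 0.749 to 0.854, between controls with 0.863 to 0.909 and between genotypes with 0.156 to 0.536. These values are across 282 regions that had been listed for their difference. Since the authors had chosen all 1652 regions by a test on these same libraries, the calls below describe how stable a difference is and are not independent evidence of it.

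Broad regions changed in both directions. By the top bin, 156 of 282 (55.3%) were higher in *Tbx5*G125R/+ and 126 (44.7%) were lower, whereas 1183 of 1370 narrower regions (86.4%) were higher. In the test across all listed regions (limma on log2(level + 1), called at an adjusted p under 0.05), 138 broad regions were called higher (48.9% of them, against 76.6% of all listed regions) and 57 were called lower (20.2%, against 10.4%). All *Tbx5*G125R/+ libraries exceeded all controls in 146 broad regions (51.8%, against 73.2% of all listed regions). They were below all controls in 106 (37.6%, against 15.1%). A count test on the recovered reads (edgeR) called 122 higher (43.3%, against 74.0% of all) and 78 lower (27.7%, against 13%). It shared 117 of the limma calls that were higher and 55 of those that were lower. The median log2 fold change was 1.49 over the broad regions and 3.33 over all listed regions.

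The split depends on the scaling between libraries. In an alternative, scaling factors were taken from the listed bins (TMM, trimmed mean of M values), which treats most of these bins as unchanged. The median over all listed regions was then 1.5 in edgeR, in place of 3.33 in limma, so the model changed along with the scaling. Within edgeR the shift brought by TMM factors was not the same in all regions. The log2 fold change went from 1.61 to -0.12 at the widest region, that of *Nfia*. At the region nearest to *Erp27* it went from 8.41 to 7.97. With TMM factors 10 broad regions were called higher and 126 lower. Of the 156 that were higher 33 changed sign, as did 40 of the 1183 narrower regions that were higher. A downward shift cannot change the sign of a region that was lower. Directions below are those on the deposited scale.

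The share of regions with a higher top bin was about level up to 4000 bp of width and fell in each wider class. It was 89.7% of 116 regions under 1000 bp, 90.2% of the 410 from 1000 to 2000 bp, 89.4% of the 490 from 2000 to 4000 bp and 76.6% of the 354 from 4000 to 8000 bp. Among the broad regions it was 68.0% of the 122 from 8000 to 12000 bp and 57.3% of the 89 from 12000 to 20000 bp. It was 37.3% of the 51 from 20000 to 40000 bp and 15.0% of the 20 at or above 40000 bp. The median control level of the same classes went the other way, with 0.545 normalised reads under 1000 bp, 28.5 from 8000 to 12000 bp and 117 at or above 40000 bp. The median *Tbx5*G125R/+ level was 17.7, 47.3 and 53.0 in these 3 classes. Over the 282 broad regions the rank correlation of width with the log2 fold change was -0.21, and with the control level 0.22. No test was made of this trend, as the points are regions of the same libraries.

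**Figure D1:**
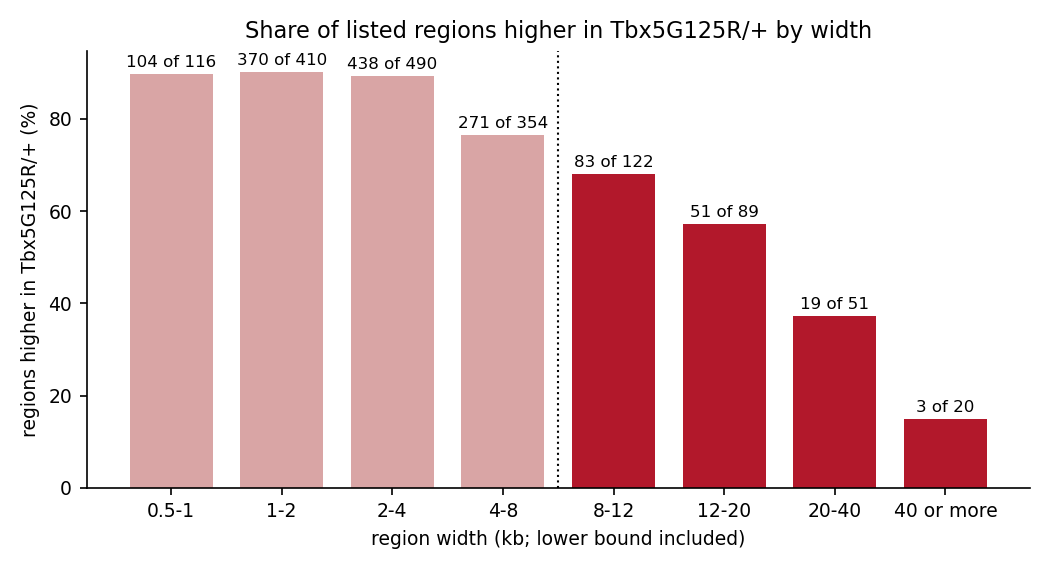
Share of listed regions with a higher top bin in *Tbx5*G125R/+ (percent, bars from 0) in 8 classes of width (kb), with the number higher of the number listed above each bar and a dotted line at the limit of the broad regions. The share is 89.7% in the narrowest class and 15.0% in the widest, on the deposited scale. With TMM factors 33 of the broad regions that were higher change sign.

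Regions that were higher had low control levels and regions that were lower had high ones. In broad regions that were higher, the median level was 46.0 normalised reads in *Tbx5*G125R/+ (interquartile range 29.3 to 82.0) and 6.96 in controls (2.0 to 24.2). In those that were lower it was 47.0 in *Tbx5*G125R/+ (22.2 to 75.8) and 121 in controls (75.7 to 191). The medians in *Tbx5*G125R/+ were thus close to each other, while the control medians stood far apart. The direction was taken from these same levels, so part of this contrast, and of the sums below, follows from the split. In 9 broad regions that were higher, no control library held a read in the top bin, and in 7 more the controls held 1 to 3 reads together. The levels of the regions that were higher summed to between 11618 and 14636 normalised reads in each *Tbx5*G125R/+ library and to between 2252 and 3844 in each control library. The levels of those that were lower summed to between 7296 and 8443 in *Tbx5*G125R/+ and to between 17201 and 22516 in controls.

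**Figure D2:**
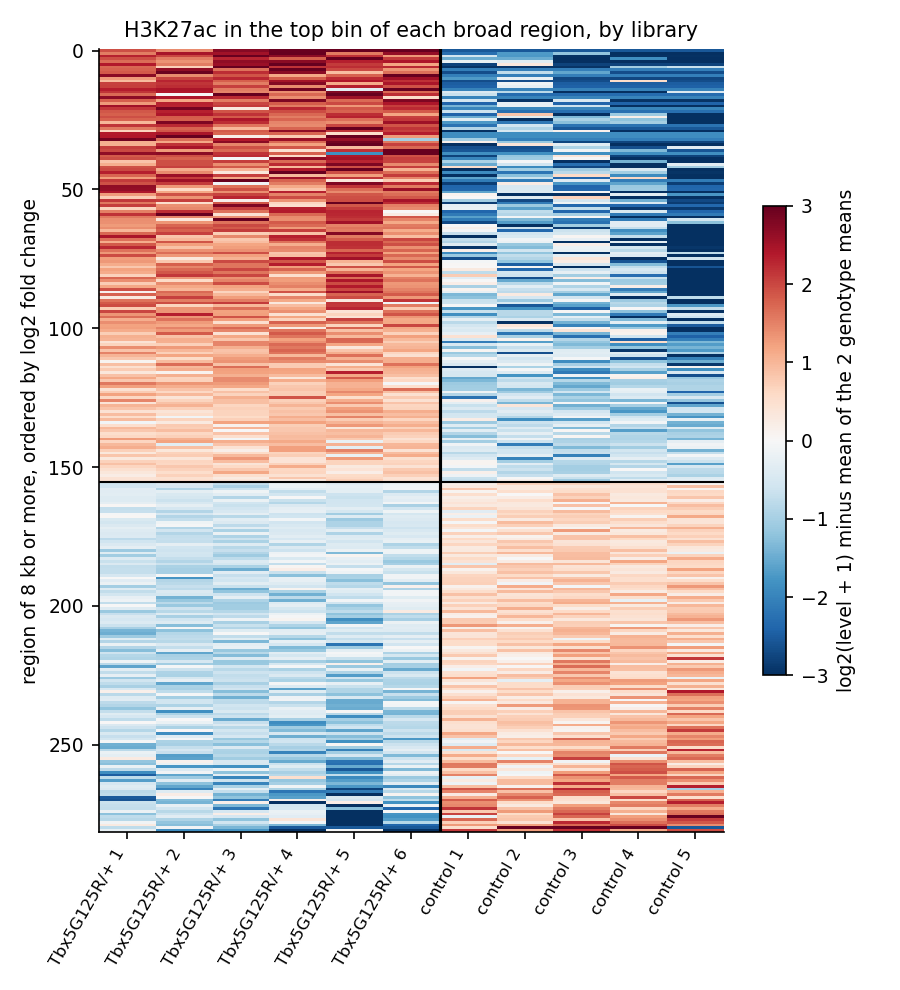
Level of the top bin in each of the 282 broad regions (1 line each, ordered by log2 fold change) and each of 11 libraries, as log2(level + 1) minus the mean of both genotype means, red above and blue below it. The 156 regions above the horizontal line are higher in *Tbx5*G125R/+ and the 126 below it are lower. Control 5, the shallowest control, has 0 reads in 84 of the upper regions.

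**Figure D3:**
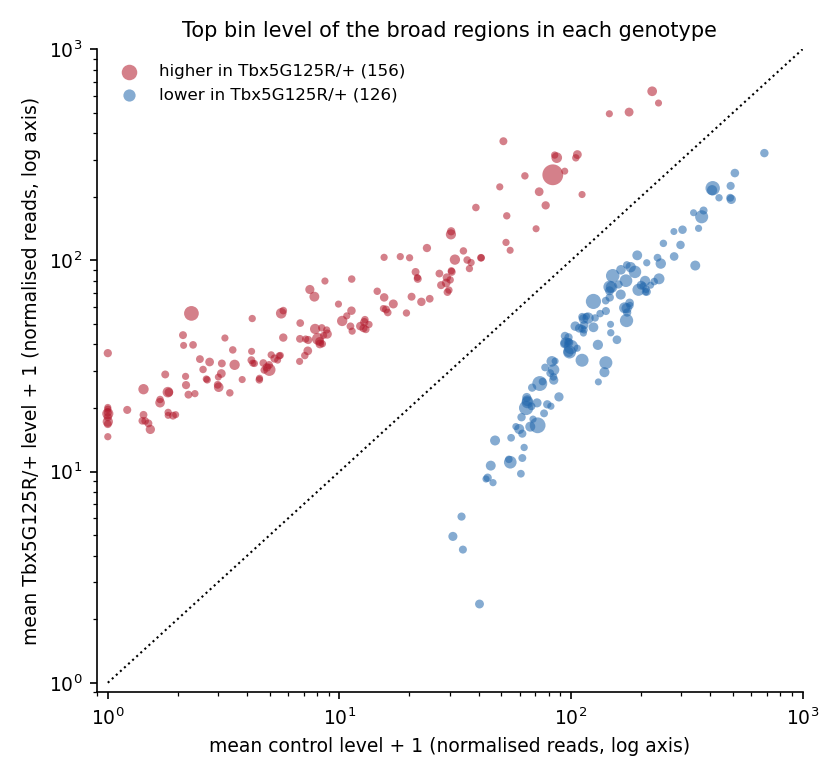
Mean level + 1 of the top bin in *Tbx5*G125R/+ (vertical, log axis) against controls (horizontal, log axis) for the 282 broad regions, with a dotted line of equal levels and larger points for wider regions. Red points (156) were higher and blue points (126) lower in *Tbx5*G125R/+. The red points have a median control level of 6.96 normalised reads and the blue points one of 121.

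Among the cardiac transcription factors (48 genes in the list), 6 genes had a broad region over them or nearest to them, as in all the lists that follow. *Nfia*, a nuclear factor I protein, had the regions that were higher, and *Gata6*, *Mef2a*, *Myocd*, *Nr2f1* and *Ppargc1a* had those that were lower, of which 1 passed the test. Of all broad regions 44.7% were lower and 20.2% called lower. Over all widths this list had 15 regions higher and 11 lower. The *Nfia* region was the widest of all, 140750 bp (chromosome 4, 97803251 to 97944000), and had a lowest, median and highest level of 225, 238 and 330.3 normalised reads in *Tbx5*G125R/+ libraries, against 104, 99.5, 66.3, 48.5 and 93.6 in controls. The genotypes did not overlap, and the log2 fold change was 1.65 ± 0.23 (adjusted p = 0.00024), but with TMM factors it was -0.12. A second *Nfia* region of 9750 bp stood at 162 ± 36.0 in *Tbx5*G125R/+ and 51.8 ± 24.7 in controls (SD, n = 6 and 5, the same for all values written so), with a log2 fold change of 1.78 ± 0.35 (adjusted p = 0.0066). With TMM factors that value was -0.14.

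*Ppargc1a* encodes PGC-1 alpha, the coactivator of mitochondrial biogenesis. Its region, 62500 bp wide (chromosome 5, 51497501 to 51560000), had a lowest, median and highest level of 160.2, 215 and 293 normalised reads in *Tbx5*G125R/+ libraries, against 331, 343, 472, 374 and 521 in controls. Every *Tbx5*G125R/+ library was below every control, with a log2 fold change of -0.90 ± 0.17 (adjusted p = 0.0061). *Gata6*, which encodes a GATA factor of heart development, had a region of 49250 bp at 17.5, 32.4 and 55.3 in *Tbx5*G125R/+ libraries (lowest, median, highest), against 77.8, 74.9, 57.4, 105 and 238 in controls. Control replicate 5 was far above the other controls there, and the limma test did not call it (adjusted p = 0.060). *Myocd*, the cardiac and smooth muscle coactivator myocardin, lay nearest to a region at 0, 48.3 and 61.0 in *Tbx5*G125R/+ libraries (lowest, median, highest), against 108, 153, 207, 130.2 and 187 in controls. All 5 controls were above all *Tbx5*G125R/+ libraries, yet with 1 *Tbx5*G125R/+ library at 0 the adjusted p was 0.23 in limma and 0.0038 in edgeR. *Nr2f1* (COUP-TFI, a nuclear receptor of atrial identity) was at 1.36 against 39.3 normalised reads (means, *Tbx5*G125R/+ against controls) with 1 control at 0, and *Mef2a* at 20.2 against 70.4. Neither passed the limma test (adjusted p = 0.10 and 0.080).

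The sarcomere list (56 genes) had 3 broad regions, at *Actn2*, *Fhod3* and *Palld*, with 3 of 3 lower and 1 called (44.7% of all broad regions were lower and 20.2% called lower). Over all widths its regions were evenly split, 8 higher and 8 lower. The *Actn2* region covered 50000 bp (chromosome 13, 12292001 to 12342000) and had a lowest, median and highest level of 98.4, 172 and 199 normalised reads in *Tbx5*G125R/+ libraries, against 385, 281, 488, 335 and 339 in controls. It was 2.29-fold lower in *Tbx5*G125R/+, with a log2 fold change of -1.21 ± 0.20 (adjusted p = 0.0015). *Fhod3*, a formin of the sarcomere, was at 67.9 against 163 and *Palld*, an actin-binding protein, at 52.3 against 117 (adjusted p = 0.059 and 0.083). *Tmod1*, which caps thin filaments, was among the 10 widest regions, 52000 bp, at 25.6, 49.7 and 82.7 in *Tbx5*G125R/+ libraries (lowest, median, highest), against 69.2, 152, 286, 148 and 209 in controls. Its genotypes overlapped at 1 control (adjusted p = 0.016).

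In the calcium handling list (38 genes) 5 genes had 6 broad regions, 4 lower (2 called) and 2 higher (1 called). For all broad regions the shares were 44.7% lower, 20.2% called lower and 48.9% called higher. Over all widths the calcium list had 4 regions higher and 6 lower. *Ryr2* carried a pair of them. The first (chromosome 13, 12049501 to 12066250) had a lowest, median and highest level of 75.4, 86.4 and 179 normalised reads in *Tbx5*G125R/+ libraries, against 254, 265, 341, 187 and 343 in controls. It was called lower, -1.45 ± 0.25 on the log2 scale (adjusted p = 0.0017). The second, which holds the start site, was at 8.75, 21.1 and 31.8 in *Tbx5*G125R/+ libraries (lowest, median, highest), against 27.7, 72.9, 79.8, 65.1 and 193 in controls, and the genotypes overlapped (adjusted p = 0.091). *Mrvi1* encodes a protein bound to the inositol trisphosphate receptor. Its region was at 12.0 ± 7.48 in *Tbx5*G125R/+ and 61.8 ± 29.5 in controls (adjusted p = 0.022). *Srl*, the luminal calcium-binding protein sarcalumenin, was at 20.7 against 63.8, and did not pass (adjusted p = 0.14). *Itpr1* encodes the inositol trisphosphate receptor itself. Its region was higher, at 47.9 ± 11.2 in *Tbx5*G125R/+ and 11.3 ± 1.72 in controls (adjusted p = 0.013). *Camk2g*, a calmodulin-dependent kinase, was at 80.8 against 20.8, with control replicate 5 at 0 (adjusted p = 0.14 in limma and 0.038 in edgeR).

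Ion channel and junction genes (43 in the list) had 5 broad regions, 4 lower with 3 called and 1 higher and called. The shares among all broad regions were 44.7% lower, 20.2% called lower and 48.9% called higher. Over all widths these genes had 5 regions higher and 6 lower. *Kcnk3* encodes the background potassium channel TASK-1 of atrial myocytes. Its region of 49500 bp (chromosome 5, 30571251 to 30620750) had a lowest, median and highest level of 19.6, 30.4 and 50.3 normalised reads in *Tbx5*G125R/+ libraries, against 77.8, 124, 147, 186 and 168 in controls. This was a 4.42-fold lower mean without overlap, -2.13 ± 0.35 on the log2 scale (adjusted p = 0.0013). *Cdh2*, the N-cadherin of intercalated discs, had a region of 42000 bp with a lowest, median and highest level of 46.1, 70.5 and 105 normalised reads in *Tbx5*G125R/+ libraries, against 198, 127, 268, 223 and 158 in controls. Again no library crossed over (log2 fold change -1.43 ± 0.27, adjusted p = 0.0049). *Dsg2*, a desmosomal cadherin, had 1 of the 5 highest control levels of all broad regions, at 171, 237 and 260.1 in *Tbx5*G125R/+ libraries (lowest, median, highest), against 366, 352, 588, 604 and 530.4 in controls (adjusted p = 0.00084). The region that was higher overlapped no gene and lay 39.0 kb from *Kcne4*, an accessory potassium channel subunit, the nearest gene, with 45.9 ± 17.8 in *Tbx5*G125R/+ and 7.81 ± 5.68 in controls (adjusted p = 0.031).

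In the list of adrenergic, vagal and cyclic nucleotide genes (42), 6 genes had 7 broad regions, 6 lower with 3 called and 1 higher and called. For all broad regions the shares were 44.7% lower, 20.2% called lower and 48.9% called higher. Over all widths the list had 7 regions higher and 13 lower. *Rgs6* encodes a regulator that shortens muscarinic signalling in the atrium. It had a pair of neighbouring regions, both called lower. The wider (chromosome 12, 82742501 to 82759000) had a lowest, median and highest level of 52.3, 60.8 and 78.4 normalised reads in *Tbx5*G125R/+ libraries, against 189, 153, 175, 154 and 220.4 in controls. The genotypes were well apart (log2 fold change -1.51 ± 0.24, adjusted p = 0.00093). The narrower was at 5.12 ± 2.96 in *Tbx5*G125R/+ and 32.7 ± 14.8 in controls (adjusted p = 0.021). *Akap13*, a scaffold of protein kinase A, was at 7.86 ± 6.95 in *Tbx5*G125R/+ and 45.1 ± 17.6 in controls (adjusted p = 0.039). *Chrm2* encodes the muscarinic M2 receptor, whose signals *Rgs6* limits. Its region of 62250 bp was at 11.4, 20.7 and 25.1 in *Tbx5*G125R/+ libraries (lowest, median, highest), against 60.7, 37.5, 47.2, 76.2 and 93.6 in controls, all *Tbx5*G125R/+ libraries below all controls, but the adjusted p was 0.061. *Adcy5*, an adenylyl cyclase, and *Pde7b*, a phosphodiesterase, were at 29.3 against 83.2 and 25.7 against 74.3 and did not pass (adjusted p = 0.11 and 0.10). The member that was higher overlapped *Fam20a* and *Prkar1a*, a regulatory subunit of protein kinase A. Its level was 264 ± 42.0 in *Tbx5*G125R/+ and 93.0 ± 25.5 in controls, with a log2 fold change of 1.52 ± 0.22 (adjusted p = 0.00036) that was -0.19 with TMM factors.

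Of the energy metabolism list (40 genes), *Cs*, *Hadha*, *Hadhb* and *Ppargc1a* had a broad region. These were 3 regions, 2 lower with 1 called and 1 higher and called. Among all broad regions 44.7% were lower, 20.2% called lower and 48.9% called higher. Over all widths the energy list had 2 regions higher and 4 lower. *Cs*, citrate synthase, was higher, at 30.1 ± 7.63 in *Tbx5*G125R/+ and 3.86 ± 4.41 in controls (adjusted p = 0.0081). The region shared by *Hadha* and *Hadhb*, the trifunctional protein of fatty acid oxidation, was at 39.9 ± 10.1 in *Tbx5*G125R/+ and 93.7 ± 21.1 in controls and was not called (adjusted p = 0.11).

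Growth factor and guidance genes (50 in the list) had 5 broad regions, 4 of them higher, 3 called, and 1 called lower. Among all broad regions 55.3% were higher, 48.9% called higher and 20.2% called lower. Over all widths this list had 20 regions higher and 3 lower. *Nrp1*, the coreceptor of semaphorins and vascular endothelial growth factor, had a region of 43250 bp with a lowest, median and highest level of 19.6, 27.8 and 43.8 normalised reads in *Tbx5*G125R/+ libraries, against 6.39, 3.41, 10.1, 0 and 0 in controls. The genotypes were apart (log2 fold change 3.16 ± 0.67, adjusted p = 0.013), though edgeR missed the threshold (adjusted p = 0.057). *Plxna4*, a semaphorin receptor, was at 18.3, 36.6 and 59.8 in *Tbx5*G125R/+ libraries (lowest, median, highest), against 4.26, 1.36, 0, 0 and 0 in controls (adjusted p = 0.00013). *Ski*, a repressor of TGF-beta signalling, had 2 reads in controls together, and the ratio of pooled levels was 48.0-fold (95% exact counting interval 13.3 to 396). *Sema5a* stood at 222 against 48.3 with control replicate 5 at 0. It had no call in limma (adjusted p = 0.053) but was called higher by edgeR (adjusted p = 0.00066). The region that was lower lay near *Tgfb2*, the TGF-beta 2 ligand, at 17.9 ± 9.87 in *Tbx5*G125R/+ and 75.5 ± 35.8 in controls (adjusted p = 0.036), where the genotypes overlapped.

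Of 7 lists of markers of other cells, 2 had broad regions, 5 in all. The fibroblast list (11 genes) had 3, over *Pdgfra* and *Col1a2* and in the neighbourhood of *Dcn*, with 3 of 3 called higher, and the endothelial list (10 genes) had 2, both at *Kdr* and both called higher (48.9% of all broad regions were called higher). *Pdgfra* (chromosome 5, 75147501 to 75158500) had a lowest, median and highest level of 45.9, 50.9 and 79.2 normalised reads in *Tbx5*G125R/+ libraries, against 10.7, 0.681, 6.75, 5.54 and 0 in controls. Its mean was 12.0-fold higher without overlap (log2 fold change 3.84 ± 0.62, adjusted p = 0.0010). *Col1a2*, a chain of type I collagen, was at 62.3, 98.7 and 163 in *Tbx5*G125R/+ libraries (lowest, median, highest), against 8.52, 17.0, 4.50, 42.9 and 0 in controls (adjusted p = 0.0060). The region with *Dcn*, the matrix proteoglycan decorin, as its nearest gene overlapped no gene and lay 94.2 kb away. It was at 28.9, 41.7 and 85.3 in *Tbx5*G125R/+ libraries (lowest, median, highest), against 4.26, 4.09, 2.25, 16.6 and 9.75 in controls (adjusted p = 0.0084). In each of the 3 regions every *Tbx5*G125R/+ library was above every control. The region at the start of *Kdr*, the main receptor of vascular endothelial growth factor, had a lowest, median and highest level of 11.7, 34.5 and 91.6 normalised reads in *Tbx5*G125R/+ libraries, against 0, 0, 0, 2.77 and 3.90 in controls. It too was without overlap (adjusted p = 0.00053), and the second *Kdr* region stood at 36.3 ± 10.2 in *Tbx5*G125R/+ and 6.30 ± 3.91 in controls (adjusted p = 0.019). The mural, immune, epicardial, neural and adipocyte lists had no broad region.

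Over listed regions of any width, 5 of 11 fibroblast markers had 7 regions, whose levels summed to 279 to 477 normalised reads per *Tbx5*G125R/+ library and 9.75 to 66.5 per control library. For 3 of 10 endothelial markers (7 regions) the sums were 594 to 871 and 164 to 408. For 3 of 12 cardiomyocyte markers, *Actc1*, *Actn2* and *Ryr2* (4 regions), they were 280 to 367 and 756 to 1134. The immune sums (2 of 8 genes, *F13a1* and *Mrc1*) were 27.9 to 61.0 and 0 to 6.13, and the 1 mural gene, *Rgs5*, was at 2.19 to 28.9 and 0 to 1.38. Other defining genes of these classes, such as *Myh6*, *Tnnt2*, *Col1a1* and *Pecam1*, had no listed region and could not be followed. Of the 7 endothelial regions 6 were higher and 1 lower, while the fibroblast regions were 7 of 7 higher. The part of these markers in the broad regions was not tested. Fewer nuclei of a type and less of the mark in each nucleus cannot be told apart in these pooled nuclei. Without the 5 broad regions at markers of other cells, 133 regions were called higher and 57 lower, which follows from the count alone, as all 5 had been called higher.

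**Figure D4:**
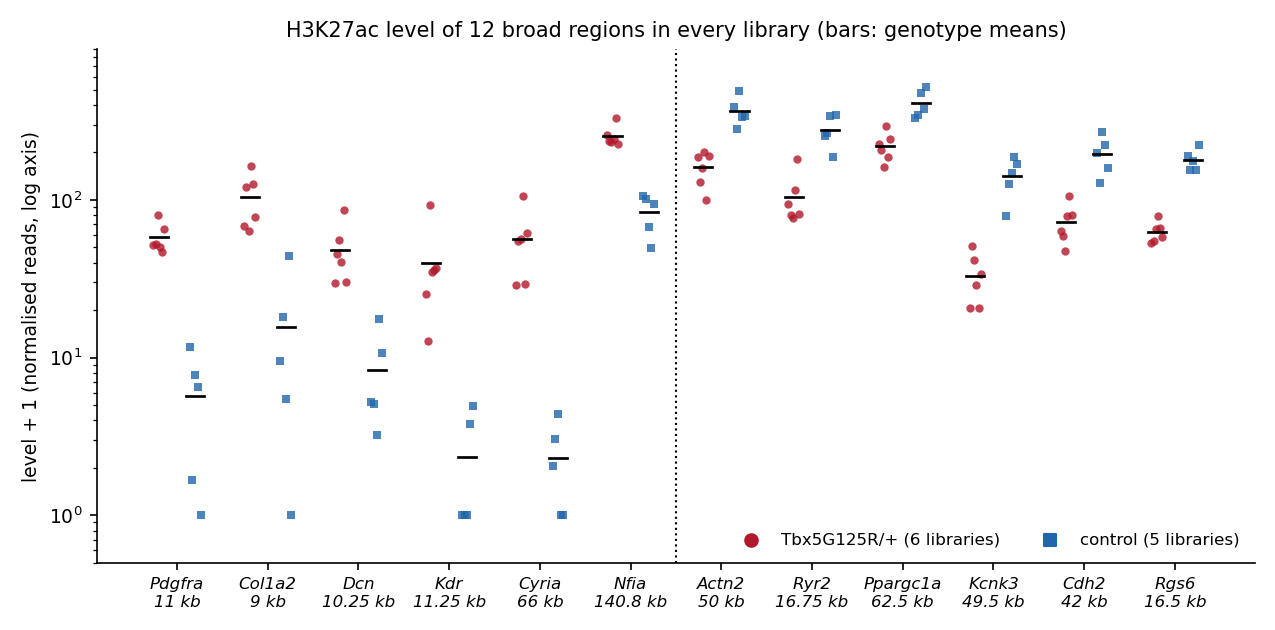
Level + 1 of the top bin (normalised reads, log axis) in every library for 12 broad regions, with width below the overlapped gene (for Dcn the nearest gene), 6 higher in *Tbx5*G125R/+ on the left of the dotted line and 6 lower on the right. Red circles are the 6 *Tbx5*G125R/+ libraries, blue squares the 5 controls and bars the genotype means. The genes were picked by hand, and where a gene had several regions the one with the smallest p is drawn. The second Ryr2 region, where the genotypes overlap, is therefore not shown. No library of 1 genotype crosses into the other in any of the 12 regions. The same held for 146 broad regions that were higher and 106 that were lower, of 282. With TMM factors the log2 fold change at Nfia changes sign to -0.12.

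The strongest calls among the regions that were higher were of 2 kinds. In the first, controls had next to no reads. At the region nearest to *Erp27*, a protein of the endoplasmic reticulum (chromosome 6, 136887001 to 136901500), the levels were 14.5, 40.9 and 49.0 in *Tbx5*G125R/+ libraries (lowest, median, highest), against 0, 0, 0, 0 and 0 in controls, so that the mean was at least 53.4-fold higher, taking 3 reads over all controls as the floor (adjusted p = 1.5e-05). On the same floor *Podn*, the matrix proteoglycan podocan, was at least 26.9-fold higher, and the region nearest to the serine protease gene *Htra3* at least 20.6-fold. The BMP receptor gene *Acvr1* was at least 23.8-fold, the sulfotransferase gene *Tpst2* at least 24.5-fold and the region at *Erbin* at least 28.3-fold higher. These 5 had mean levels of 13.6 to 18.7 normalised reads in *Tbx5*G125R/+ and 0 reads in every control. *Adap2* and *Mgll*, a lipase of endocannabinoids, had 2 and 3 control reads, with pooled ratios of 40.5-fold (95% exact counting interval 11.2 to 334) and 25.5-fold (95% exact counting interval 8.71 to 123).

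In the second kind both genotypes had high levels. The region nearest to *Lrrc55*, an accessory subunit of potassium channels (chromosome 2, 85231001 to 85254500), had the highest *Tbx5*G125R/+ level of all broad regions, with a lowest, median and highest level of 534, 654 and 691 normalised reads in *Tbx5*G125R/+ libraries, against 202, 306, 209, 209 and 189 in controls. It had the smallest p of the broad regions, with a log2 fold change of 1.51 ± 0.14 (adjusted p = 1.0e-05), and -0.24 with TMM factors. *Topaz1*, a germ cell gene, was at 370.3, 484 and 607 in *Tbx5*G125R/+ libraries (lowest, median, highest), against 144, 176, 102, 176 and 129 in controls (log2 fold change 1.76 ± 0.18, adjusted p = 1.6e-05, and 0.03 with TMM factors). *Spidr*, a DNA repair scaffold, *Cwc27*, a spliceosome protein, and *Laptm4b*, a lysosomal membrane protein, completed the 5 highest *Tbx5*G125R/+ levels. They stood at 555 ± 61.1 in *Tbx5*G125R/+ and 238 ± 94.7 in controls, at 503 ± 194 in *Tbx5*G125R/+ and 177 ± 42.5 in controls and at 366 ± 66.4 in *Tbx5*G125R/+ and 50.1 ± 41.0 in controls. All were named for their level, not for a small p, and at *Laptm4b* control replicate 5 was at 0. With TMM factors *Spidr* and *Cwc27* changed sign (-0.52 and -0.28) and *Laptm4b* did not.

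The strongest calls among the regions that were lower all lay at bins with many control reads. A region without a protein-coding gene within 100 kb (chromosome 8, 78017001 to 78032500) had the highest control level, with a lowest, median and highest level of 246, 347 and 386 normalised reads in *Tbx5*G125R/+ libraries, against 727, 722, 635, 591 and 739 in controls. It was 2.13-fold lower (log2 fold change -1.10 ± 0.14, adjusted p = 7.9e-05). *C1galt1*, a glycosyltransferase of O-glycans, had a lowest, median and highest level of 118, 189 and 253 normalised reads in *Tbx5*G125R/+ libraries, against 441, 459, 439.7, 587 and 528 in controls. The genotypes were again apart, with a log2 fold change of -1.38 ± 0.19 (adjusted p = 0.00018). *Fras1*, a matrix protein of basement membranes, was at 197 ± 37.3 in *Tbx5*G125R/+ and 486 ± 112 in controls and *Frs2*, an adaptor of fibroblast growth factor receptors, at 258 ± 59.3 in *Tbx5*G125R/+ and 509 ± 65.2 in controls (adjusted p = 0.00021 and 0.0011). *Kif13a*, a kinesin, was 3.67-fold lower, at 53.1, 93.0 and 138 in *Tbx5*G125R/+ libraries (lowest, median, highest), against 366, 260.3, 448, 149.6 and 491 in controls, the largest fall of the 10 strongest calls (log2 fold change -1.82 ± 0.30, adjusted p = 0.0012). *Pdzrn3*, a ubiquitin ligase, and the region nearest to *Rbpms*, an RNA-binding protein, were at 80.8 ± 7.79 in *Tbx5*G125R/+ and 239 ± 90.4 in controls and at 197 ± 60.9 in *Tbx5*G125R/+ and 435 ± 70.6 in controls. A second region without a gene (chromosome 8, 90010251 to 90019000) was at 141 ± 39.5 in *Tbx5*G125R/+ and 355 ± 90.8 in controls.

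Of the 10 widest broad regions, 8 were lower, against 44.7% of all broad regions. The 2 that were higher were *Nfia* and *Cyria*, which encodes a regulator of Rac1 and the actin cytoskeleton. The *Cyria* region, 66000 bp (chromosome 12, 12258501 to 12324500), had a lowest, median and highest level of 27.9, 54.8 and 104 normalised reads in *Tbx5*G125R/+ libraries, against 1.07, 2.04, 3.37, 0 and 0 in controls. It was 42.5-fold higher without overlap (log2 fold change 4.71 ± 0.59, adjusted p = 8.3e-05). Among the 8 that were lower, *Zbtb20*, a zinc finger repressor, had the widest, 77250 bp, at 1.03, 12.8 and 30.6 in *Tbx5*G125R/+ libraries (lowest, median, highest), against 71.4, 38.8, 33.7, 73.4 and 137 in controls. The genotypes did not overlap, but the spread was wide (adjusted p = 0.091). *Corin* encodes the protease that activates atrial natriuretic peptide. Its region of 67750 bp was at 13.6, 24.4 and 35.0 in *Tbx5*G125R/+ libraries (lowest, median, highest), against 38.3, 63.4, 81.0, 77.6 and 101 in controls (adjusted p = 0.10). *Zbtb16*, another zinc finger gene, and *Sptbn1*, a spectrin, were at 37.9 against 99.0 and 83.6 against 150.4 (adjusted p = 0.083 and 0.16). With *Ppargc1a*, *Tmod1*, *Chrm2* and the *Aopep* and *Fancc* region these make up the 8, of which the limma test called *Ppargc1a* and *Tmod1*. That is 2 of the 10 widest called lower, against 20.2% of all broad regions and 10.4% of all listed regions.

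Several genes carried more than 1 broad region. This held for 16 genes with 33 regions, and in 14 of them all regions of the gene had 1 direction. That agreement was not tested, and regions of 1 gene, some of them close neighbours, need not be independent of each other. *Zbtb16* had 3, all lower and none called (means of 37.9 against 99.0, 39.8 against 96.8 and 19.8 against 78.0). Among those also lower throughout were *Rgs6*, *Ryr2*, *Zbtb20*, *Aak1* and *Lpin1*. *Aak1*, a kinase of clathrin uptake, was at 3.93 against 29.9 and 47.2 against 124 (adjusted p = 0.0091 and 0.046). *Lpin1*, a phosphatidate phosphatase and coactivator, was at 15.3 against 56.8 and 26.1 against 83.2 without a call. Higher throughout were *Nfia*, *Kdr*, *Niban1*, *Gab2*, *Ints4*, *Itsn1* and *Cenpp*. *Gab2*, an adaptor of receptor kinases, was at 22.7 against 0.835 and 24.8 against 1.98, both called (adjusted p = 0.00033 and 0.0020). The *Cenpp* regions also overlap *Ecm2* and *Aspn*, matrix protein genes, and were at 109.9 against 33.3 and 50.0 against 11.8. *Niban1* was at 31.0 against 3.97 and 121 against 51.4, *Ints4*, of the integrator complex, at 31.6 against 3.23 and 211 against 71.9, and *Itsn1*, an endocytic scaffold, at 18.1 against 0.822 and 77.2 against 27.9. With TMM factors the region with the higher level in each of *Niban1*, *Ints4*, *Itsn1* and *Cenpp* changed sign, at -0.49, -0.24, -0.28 and -0.035.

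In *Nudt3* and *Aopep* the regions of 1 gene went opposite ways. *Nudt3* encodes a diphosphoinositol polyphosphate phosphatase. Its region that holds the start site (chromosome 17, 27581501 to 27626250) was at 55.7, 70.2 and 95.5 in *Tbx5*G125R/+ libraries (lowest, median, highest), against 135, 127, 100.1, 209 and 158 in controls, lower in every *Tbx5*G125R/+ library but not called (adjusted p = 0.13). The neighbouring region of 9750 bp, just outside the gene (chromosome 17, 27569501 to 27579250) was at 17.9, 29.3 and 57.2 in *Tbx5*G125R/+ libraries (lowest, median, highest), against 0, 6.81, 10.1, 5.54 and 0 in controls, and was called higher (adjusted p = 0.018). Along *Aopep*, an aminopeptidase, a region of 17000 bp was at 39.2 ± 13.2 in *Tbx5*G125R/+ and 7.23 ± 5.28 in controls (adjusted p = 0.040). The other *Aopep* region, which holds the microRNA cluster described above, was lower in its top bin. No interaction test was made between regions. In all, 5 pairs of broad regions lay close together, at *Zbtb20*, *Lpin1*, *Zbtb16*, *Rgs6* and *Nudt3*, with gaps of 750 to 6750 bp between them.

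Broad regions mostly lay over genes. A protein-coding gene was overlapped by 87.2% of those that were higher and 86.5% of those that were lower, and 41.0% and 59.5% lay wholly inside 1 gene. Narrower regions overlapped a gene in 62.6% of those that were higher and 73.8% of those that were lower. No protein-coding gene lay within 100 kb of 6 that were higher and 5 that were lower. Off chromosome 18, for which no start sites were at hand, 63 of 152 broad regions that were higher (41.4%) and 25 of 116 that were lower (21.6%) held a start site. The median width was 11375 bp in those that were higher and 15875 bp in those that were lower. These shares, and the part of width in them, were not tested.

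The place of the top bin inside these regions differed as well. Where a region held a start site, the middle of the top bin was a median of 2912 bp from it in regions that were higher (interquartile range 857 to 5133 bp) and 8097 bp in regions that were lower (3784 to 11695 bp). It was within 1000 bp of the start site in 18 of 63 that were higher and 1 of 25 that were lower. The 1 was *Nr2f1*, at 949 bp. The top bins that held a start site were those of *Pdgfra*, *Trib2*, *Cd82*, *Dhrs7*, *Pcdh18* and *Phldb2*. *Cd82*, a tetraspanin, was at 180.0, 229.7 and 353 in *Tbx5*G125R/+ libraries (lowest, median, highest), against 52.2, 17.7, 92.2, 88.6 and 60.5 in controls (log2 fold change 2.14 ± 0.34, adjusted p = 0.0010). *Trib2* was at 88.3 against 29.4 in the means (log2 fold change 1.72 ± 0.37, adjusted p = 0.017), and its fold change with TMM factors was -0.19. *Pcdh18*, a protocadherin, and *Phldb2*, a cortical microtubule protein, were at 111 against 53.6 and 90.5 against 35.4 without a call. The top bin lay a median of 2500 bp from the nearer edge of its region in those that were higher and 4125 bp in those that were lower, which is 22.9% and 28.5% of the width.

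**Figure D5:**
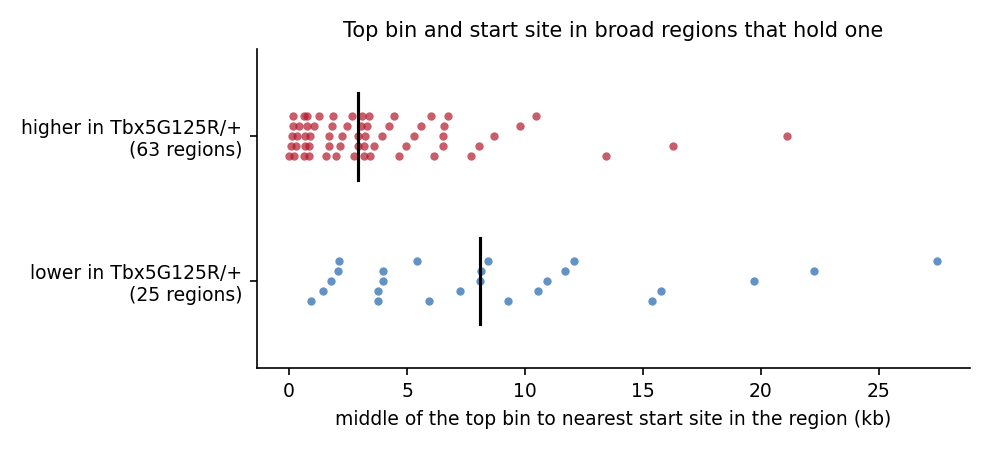
Distance (kb) from the middle of the top bin to the nearest start site inside the region, 1 point for each broad region that holds one, 63 higher in *Tbx5*G125R/+ (upper, red) and 25 lower (lower, blue), with a line at each median. The medians are 2912 bp and 8097 bp, and points are shifted up and down only so that they can be seen.

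Genes outside the lists were looked through once the values were known, so the following names were chosen after seeing them. Among the calls that were higher, *Hspg2*, the basement membrane proteoglycan perlecan, averaged 31.0 against 2.53, and *Sparcl1*, a matricellular protein, was at 80.6 ± 45.5 in *Tbx5*G125R/+ and 10.3 ± 6.74 in controls. *Cd34*, a sialomucin of endothelium and stroma, was at 28.1 ± 22.4 in *Tbx5*G125R/+ and 2.09 ± 2.62 in controls, the receptor gene *Notch1* at 46.4 ± 8.01 in *Tbx5*G125R/+ and 6.85 ± 6.50 in controls and *Heg1*, a receptor of endothelial junctions, at 24.7 ± 18.6 in *Tbx5*G125R/+ and 1.18 ± 1.95 in controls. *Snai2*, a repressor of epithelial genes, was at 27.2 ± 7.75 in *Tbx5*G125R/+ and 1.17 ± 2.07 in controls and *Fgf2*, a growth factor gene, at 53.6 ± 15.0 in *Tbx5*G125R/+ and 9.76 ± 8.85 in controls. Not called by limma were *Vim* and *Fstl1*. *Vim*, the intermediate filament vimentin, was at 102 against 40.0 and missed the test (adjusted p = 0.10, and a log2 fold change of -0.38 with TMM factors). *Fstl1*, a secreted follistatin-like protein, was at 136 against 29.4, with control replicate 5 at 0. It narrowly missed the limma test (adjusted p = 0.051) but was called higher by edgeR (adjusted p = 0.0021).

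Among the calls that were lower, *Dag1*, the dystroglycan that ties muscle fibres to the matrix, was at 79.0 ± 27.7 in *Tbx5*G125R/+ and 208 ± 50.2 in controls and *Homer1*, a scaffold that binds calcium release channels, at 171 ± 25.5 in *Tbx5*G125R/+ and 373 ± 136 in controls. *Prkag2*, a subunit of the energy sensor AMPK, was at 55.6 ± 14.1 in *Tbx5*G125R/+ and 174 ± 76.1 in controls and the region nearest to *Nampt*, an enzyme of NAD synthesis, at 102 ± 17.2 in *Tbx5*G125R/+ and 235 ± 75.3 in controls. *Jarid2*, a partner of polycomb complexes, was at 117 ± 40.1 in *Tbx5*G125R/+ and 296 ± 74.1 in controls and *Lifr*, the receptor of leukaemia inhibitory factor, at 69.9 ± 22.4 in *Tbx5*G125R/+ and 209 ± 76.5 in controls. *Dsc2*, a desmosomal cadherin like *Dsg2*, was at 65.8 against 146 without a call (adjusted p = 0.10). *Ncoa3*, a nuclear receptor coactivator, was at 214 ± 18.7 in *Tbx5*G125R/+ and 406 ± 88.9 in controls, 1 of the highest control levels outside the lists.

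At the limit of 8000 bp, 6 of the 11 regions of exactly that width were higher and 5 lower. Inside it the split was 6 and 2 at 8250 bp, 9 and 2 at 8500 bp, 8 and 3 at 8750 bp and 10 and 4 at 9000 bp. Outside it the split was 14 and 4 at 7750 bp, 12 and 8 at 7500 bp, 10 and 1 at 7250 bp and 9 and 5 at 7000 bp. Just below and just above the limit, most regions were thus higher. Just inside, the smallest p belonged to *Plxna4*, *Prkar1a* and *Klhl3*, an adaptor of ubiquitin ligases, at 38.6 against 1.12, 264 against 93.0 and 17.5 against 0.822. Just outside it belonged to *Flrt2*, a matrix-facing adhesion protein, *Cartpt*, a neuropeptide gene, and *Plxdc2*, a membrane receptor. Their mean levels were 20.8, 21.3 and 30.4 in *Tbx5*G125R/+ and 0.409, 0 and 0.811 in controls.

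The calls were also made without each library in turn. Of the 138 called higher, 92 were called in all 11 such fits, and of the 57 called lower, 35 were. The counts ran from 100 to 147 and from 39 to 64. Among the 91 regions chosen to be named, 63 were called, and 15 of these lost the call without at least 1 library. *Itpr1* lost it without *Tbx5*G125R/+ replicate 3 (adjusted p = 0.063) and the *Cenpp* and *Ecm2* region without control replicate 2 (0.080). *Tmod1* lost it without control replicate 2, 3 or 4 (0.065, 0.11 and 0.051), and the *Nudt3* region that was higher without *Tbx5*G125R/+ replicate 1 or 4 or control replicate 1 (0.068, 0.069 and 0.073). The narrower *Rgs6* region lost it without *Tbx5*G125R/+ replicate 3 or 6 (0.075 both) or control replicate 1 or 3 (0.063 and 0.053). The second *Kdr* region lost it in 5 of 11 fits, and *Kcne4*, *Mrvi1* and *Tgfb2* in 7. The wider *Aak1* region, the *Aopep* region that was higher, the *Cenpp* and *Aspn* region and the *Niban1* region with the higher level lost it in 8, and *Akap13* and the *Itsn1* region with the higher level in 9. In these 10 the adjusted p reached 0.073 at *Kdr*, 0.12 at *Kcne4*, 0.10 at *Mrvi1*, 0.18 at *Tgfb2*, 0.25 at *Aak1*, 0.14 at *Aopep*, 0.095 at *Cenpp*, 0.17 at *Niban1*, 0.13 at *Akap13* and 0.0997 at *Itsn1*.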

How the data were processed

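H3K27ac CUT&RUN libraries of PCM1+ atrial nuclei (6 *Tbx5*G125R/+, 5 control) were grouped by the genotype in their labels, 1 library per mouse per the study's methods. Per the submitters' processing notes BWA, bedtools and DESeq2 were used on mm10, with no versions given in the sources used here. The authors tested the genome in bins, joined these into regions, and deposited, for each region, the normalised signal (reads over a size factor) of every library in the top bin of 500 bp. They also deposited a mean log2 fold change and an adjusted p-value per region. Both are the authors' own comparison and were not used. Their p-value had been the filter of the table, so that regions without a difference were not analysed here.

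Width was end minus start. The main test was limma 3.58.1 (trend, R 4.3.3) on log2(level + 1) over all 1652 regions, two-sided, with Benjamini-Hochberg adjustment over 126854 tests, the highest region number. The top bin is chosen from more bins in a wider region. The adjustment took no account of that choice. Whole reads were recovered for 100% of values (tolerance 0.05 reads) and tested with edgeR 4.0.16 (quasi-likelihood, deposited size factors). DESeq2 1.42.0, TMM factors, other pseudocounts, a minimum level, other width limits and each library left out were alternatives. The tests were checked on simulated reads. Where controls held no read, ratios used a floor of 3 reads over the group, 0.662 normalised reads. Intervals and floors cover counting error only, as PCR duplicates are not independent molecules.

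A region was given to each RefSeq protein-coding gene it overlapped, or else to the protein-coding gene whose body lay nearest, within 100 kb. Start sites were known for 81.8% of protein-coding genes outside chromosome 18. The text names the 10 widest regions, the 10 smallest p in each direction, the 5 highest levels in each genotype, 3 regions on either side of the limit, all at listed genes, genes with more than 1 region and neighbouring pairs. The members, lists and alternatives were chosen with earlier results of these data known. The alternative without marker genes of other cells was chosen after seeing the data. Some items are not reported here.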

Additional observations from a re-analysis of the deposited data

Results flagged for a closer look

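In 18 of 176 groups of libraries at the named broad regions, 1 library stood far from the others of its genotype by Dixon's test at the 95% level. Chance flags about 1 in 20 groups of normally distributed values, and levels of a few reads do not follow that distribution. No excess can be read from the count. In *Tbx5*G125R/+, replicate 5, the shallowest, was high at both *Nfia* regions (330 and 232 normalised reads, group medians of 238 and 152), at *Gab2* (48.1, median 18.5) and at *Ryr2* (179, median 86.4). Replicate 1 was high at *Aak1* (11.7, median 3.22) and *Zbtb16* (41.6, median 15.8), replicate 2 at *Adap2* (22.9, median 16.7) and replicate 3 at *Kdr* (91.6, median 34.5). Among controls, replicate 5, the shallowest, was high at *Gata6* (238, median 77.8) and *Lpin1* (189, median 60.7). Replicate 2 was high at *Lrrc55* (306, median 209) and low at *Hadhb* (56.5, median 101). Replicate 4 was high at *Cenpp* (31.9, median 7.80) and replicate 1 at *Niban1* (85.2, median 42.9). At 4 regions 1 control held all or most of the few control reads, replicate 1 at *Adap2* and *Ski* (2.13 each, the other controls at 0), replicate 2 at *Mgll* (2.04) and replicate 3 at *Gab2* (7.87).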

How the results depend on the processing

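Of the 91 named regions, 10 changed direction, all of them with TMM factors, and 0 did under the other settings. These were *Spidr* (-0.52), *Niban1* (-0.49), *Cwc27* (-0.28), *Itsn1* (-0.28), *Lrrc55* (-0.24), *Ints4* (-0.24), the region at *Fam20a* and *Prkar1a* (-0.19), both *Nfia* regions (-0.12 and -0.14) and *Cenpp* (-0.035). TMM factors gave 10 calls higher and 126 lower and a median log2 fold change of -0.28, by their assumption that most listed bins are unchanged. Calls that were lower numbered 126 with adjustment over the listed regions alone, 103 with a pseudocount of 5 and 124 with DESeq2, against 57, and calls that were higher stayed between 100 and 156 in these and the leave-one-out fits, against 138. At a limit of 6000 bp 238 of 418 regions were called higher. The median log2 fold change was 1.49, and no broad region lay between -0.83 and 0.93. The median was 1.37 with a pseudocount of 5, 1.38 at a mean level of 10 or more, 1.34 without the shallowest library of each genotype, 1.99 at 6000 bp and -0.83 at 10000 bp. Leaving out 1 library gave 100 to 147 calls higher, 39 to 64 lower and medians of 1.41 to 1.51. The replicate numbers did not pair the libraries (correlations of same-numbered deviations -0.145 to -0.017, none highest with its own number). A replicate block gave 105 calls higher and 45 lower. With 27118 to 161738 top-bin reads per library, control levels near 0 rest on a few reads.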
